A study of Mus musculus with 4 samples.

Results

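Genes of the chemokine and interleukin systems were described in cultured mammary tumour cells from the Chaos3 mouse, strain C3HeB/FeJ. They were chosen by symbol: all genes named Ccl, Ccr, Cxcl, Cxcr or Il followed by a digit, plus Csf1, Csf2, Csf3, Csf1r, Lif, Lifr, Osmr, Tnf, Tslp and Cx3cl1. Of the 23361 genes in the deposited table, 145 matched. The 63 of these with an FPKM of 1 or more in any library are described. FPKM counts fragments per kilobase of transcript relative to sequencing depth, so its levels can be set beside each other between genes. An FPKM minimum of 0.5 would have kept 72 genes and a minimum of 2 would have kept 56. Just inside the minimum, Cxcl2 reached 1.09 FPKM, Il11ra1 1.17 and Tslp 1.25. Just outside it, Il17c reached 0.89 FPKM, Il12rb2 0.728 and Il20rb 0.718. Of the 145, 43 had no fragments in any library.

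The study compared the parental tumour line 23116 MT, labelled low in Arid1a (2 libraries), with the add-back clones AB-C1 and AB-C2, labelled high in Arid1a (1 library each). The clones had received a lentiviral vector that overexpresses Arid1a, whose promoter is not given in the sources used here, and Arid1a is a subunit gene of the BAF chromatin remodelling complex. All 4 libraries share the Chaos3 background, a mutant allele of the helicase subunit Mcm4, and no treatment time is given. The numbers 1 and 2 below only name the libraries of a group, and the table does not say which clone a High library is. Because each clone has 1 library, the add-back and the differences between clones cannot be told apart. The labels name no vector for the parental libraries, so the transduction and the added gene cannot be told apart either. Nothing in the labels says that the parental libraries came from different cultures, so the spread of the Low pair may be technical. The p-values cover only the spread among these libraries, which in the High pair includes the difference between clones.

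The counted Arid1a RNA went against the labels, at 10.2 and 11.7 FPKM in the libraries labelled Low and 6.16 and 7.22 FPKM in those labelled High (log2 fold change -0.71, edgeR adjusted p = 0.165). Whether the transcript of the vector was counted as mouse Arid1a is not known, so no direction below can be read as following a rise in Arid1a. Directions are given for the libraries labelled High. Depth was 13889856 and 28110812 fragments in the Low libraries, against 16523077 and 24307249 in those labelled High. Expression varied more within the High pair than within the Low pair, with a biological coefficient of variation of 42.9% against 17.3%. Among markers of other cells, 7 of the 18 leukocyte markers in the table were at 0 in every library, and Ptprc, the pan-leukocyte antigen, stayed at or below 0.0584 FPKM. The summed leukocyte FPKM was 2.39 and 3.01 in the Low libraries, 3.87 in High library 1 and 34.4 in High library 2, where S100a8 (22.9 FPKM) and S100a9 (10.7 FPKM) made up most of it. The 5 endothelial markers summed to at most 0.226 FPKM.

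Chemokines are small secreted proteins that attract cells through G-protein-coupled receptors, and they are grouped as CC, CXC or CX3C by the spacing of their first cysteines. Interleukins and related cytokines act through single-pass receptors that mostly signal through JAK kinases and STAT factors, or, for the interleukin-1 family, through MyD88 and NF-kB. Mammary tumour cells are a known source of chemokines such as Ccl2, Cxcl1 and Cxcl12, which draw in monocytes, neutrophils and other cells that carry the matching receptors.

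The kept genes were mostly ligands and interleukin receptors, with few chemokine receptors. Kept were 9 of 24 CC chemokines, 9 of 13 CXC and CX3C chemokines, 13 of 42 interleukins with their antagonists and binding proteins, and 5 of 6 other cytokines (Tnf was not kept). On the receptor side, 21 of 39 interleukin receptors, 3 of 17 chemokine receptors and 3 of 3 other cytokine receptors were kept. The interleukin-induced enzyme gene Il4i1 was not kept. The most abundant were Ccl2, with a mean of 275 FPKM over the 4 libraries, Cxcl12 with 261 FPKM and Ccl7 with 138 FPKM. Next came Il1rl1 (42.0 FPKM), Csf1 (39.4 FPKM), Cxcl16 (32.6 FPKM), Il6st (25.6 FPKM), Cxcl5 (22.0 FPKM), Il17rc (18.1 FPKM) and Lif (17.1 FPKM). For several abundant chemokines the main receptor was low or not counted. Ccr2, the receptor of Ccl2, reached at most 0.612 FPKM, Cxcr2, the receptor of Cxcl1, Cxcl2 and Cxcl5, at most 0.425 FPKM, and Cx3cr1, the receptor of Cx3cl1, was listed at 0 in every library.

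**Figure D1:**
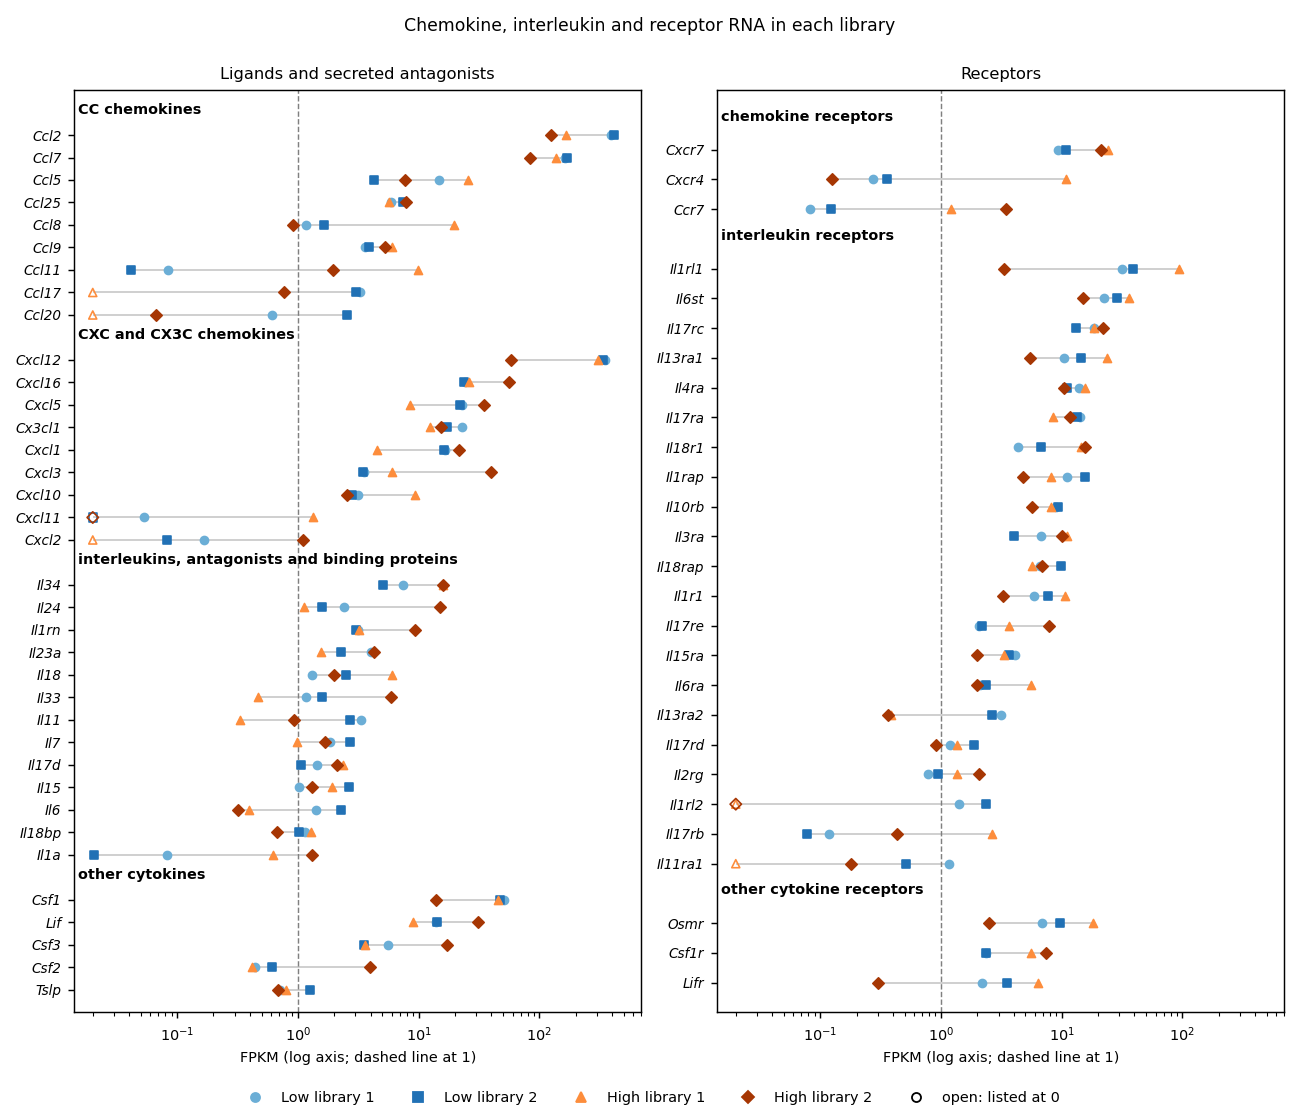
FPKM on a log axis (horizontal) of the 63 kept genes in each of the 4 libraries, grouped by role, with Low libraries in blue, High libraries in orange and brown, and open symbols for genes listed at 0. Ccl2, Ccl7 and Cxcl12 stand apart from the other ligands at the right, and in many rows, such as Il1rl1, Cxcr4 and Lifr, the High libraries lie on either side of the blue symbols.

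The first question was which of these genes differed between the libraries labelled High and Low. The monocyte attractant Ccl2 and the interleukin-36 receptor Il1rl2 fell in the libraries labelled High, and the eosinophil attractant Ccl11, the chemokine receptor Ccr7 and the interleukin-18 receptor chain Il18r1 rose. These 5 were the calls among 60 tested genes (8.33%), 3 higher and 2 lower. Of all 12987 genes tested, 1.14% were called higher and 1.33% lower, together 2.47%, or 2.58% of the tested genes that also reached an FPKM of 1 in any library. A call is a Benjamini-Hochberg adjusted p under 0.05 over all tested genes in edgeR's quasi-likelihood test. A gene kept only through the libraries where it is high had to differ somewhat, so the count describes the kept genes and is not evidence about the family. At an unadjusted p under 0.05 there were 19 of 60. DESeq2 called 10 higher and 4 lower, and limma-voom called 0 higher and 2 lower. All 5 calls were lost when either Low library was left out, with 0 genes called in the whole table. With a crossed replicate block, an alternative chosen after seeing the data, all 5 were lost as well, while 38 genes of the table were called higher and 56 lower.

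Ccl2 (chromosome 11, 82035571 to 82037453, mm10), which draws monocytes through Ccr2, measured 395 and 416 FPKM in the Low libraries, against 165 and 125 FPKM in those labelled High. Both High libraries lay below both Low libraries, which lay close together. The group means were 406 ± 14.5 and 145 ± 28.7 FPKM (SD, n = 2 each), a 2.78-fold fall with a log2 fold change of -1.47 ± 0.24 (SE) and an adjusted p of 0.0259 (2.12e-06 to 0.624 over the alternatives). Its neighbour Ccl7, a related monocyte attractant, was at 162 and 170.1 FPKM in the Low libraries and 136 and 82.9 FPKM in the High libraries. The groups did not overlap for Ccl7 either, but its log2 fold change, -0.59 ± 0.28 (SE), missed the threshold (adjusted p = 0.327).

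Ccl11, or eotaxin (chromosome 11, 82057823 to 82062955, mm10), was at 0.0838 and 0.0417 FPKM in the Low libraries, from 1 fragment each, against 9.90 and 1.94 FPKM in the High libraries, from 150 and 42 fragments. It was close to absent from the parental libraries and counted in both High libraries. The ratio of fragments, 192 against 2 and scaled to library size, was 94.3 (exact 95% interval 25.8 to 784, counting error only), with an adjusted p of 0.0392 (5.9e-19 to 0.798 over the alternatives). Leaving out High library 1 gave a log2 value of 4.96, and leaving out High library 2 gave 7.29. With limma-voom the call was lost (adjusted p = 0.17). Ccl8, another ligand of this gene cluster, was at 1.18 and 1.64 FPKM in the Low libraries, 19.7 in High library 1 and 0.908 in High library 2. Only High library 1 was high, and the log2 fold change between groups, 2.83 ± 1.40 (SE), did not pass (adjusted p = 0.372). Without High library 1 it turned to -0.65. Ccl17, a ligand of Ccr4, was at 3.27 and 3.02 FPKM in the Low libraries, 0 in High library 1 and 0.771 FPKM in High library 2. It rested on 14, 26, 0 and 6 fragments and did not pass (log2 fold change -2.83 ± 1.20 SE, adjusted p = 0.27).

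**Figure D2:**
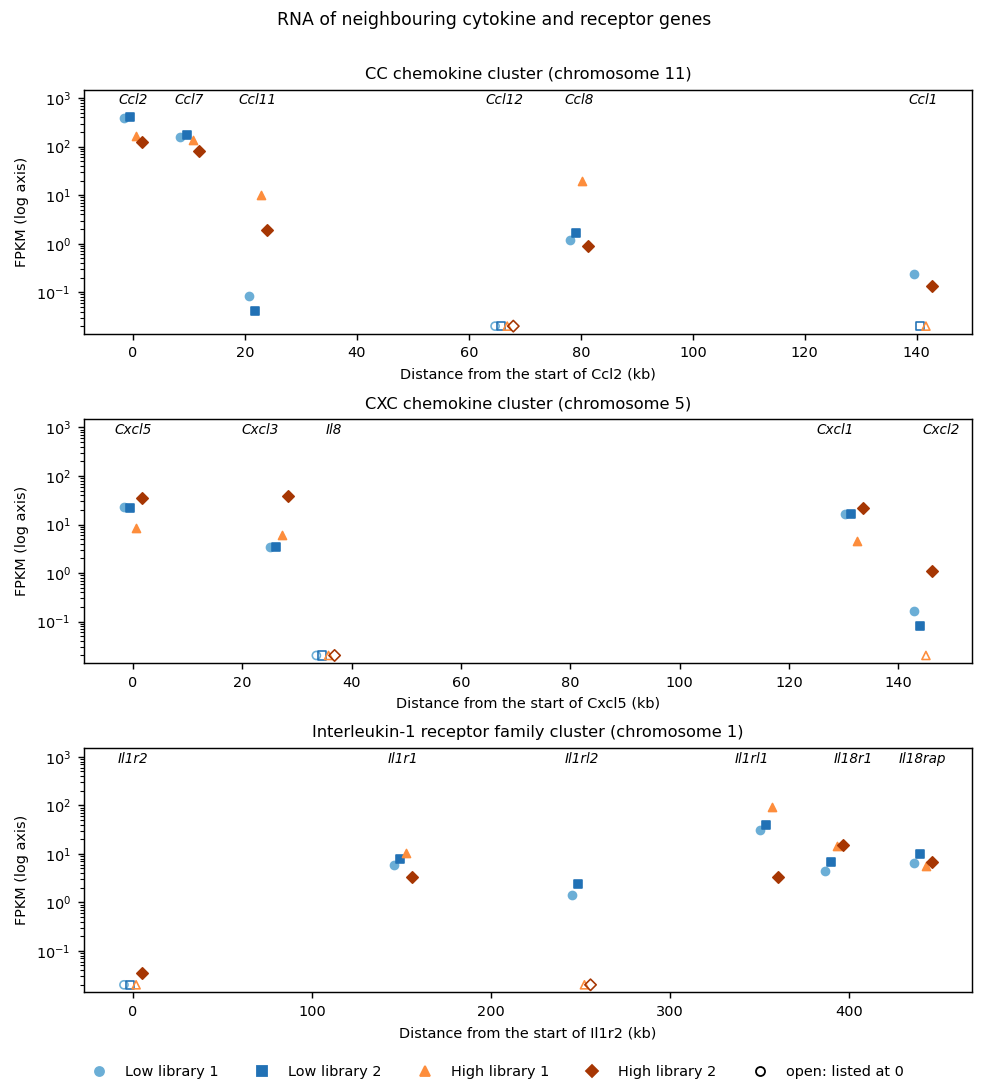
FPKM on a log axis (vertical) of neighbouring genes in 3 gene clusters, against the distance in kb from the start of the leftmost gene, with symbols for the 4 libraries slightly offset and open symbols for genes listed at 0. In the CC cluster Ccl2 lies lower and Ccl11 higher in both High libraries, and in the interleukin-1 receptor cluster Il1rl2 is listed at 0 in both High libraries beside genes that are not.

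Among the 3 chemokine receptors kept, Ccr7 (chromosome 11, 99144196 to 99155077, mm10), the receptor that guides cells towards lymph nodes, was at 0.0823 and 0.123 FPKM in the Low libraries against 1.20 and 3.47 FPKM in the High libraries. Both High libraries lay above both Low libraries, from 37 and 153 fragments against 2 and 6. The log2 fold change was 4.43 ± 0.86 (SE), 21.6-fold, with an adjusted p of 0.0452 (1.32e-11 to 0.793 over the alternatives), and with limma-voom it did not pass (adjusted p = 0.135). The log2 value moved to 4.98 when High library 1 was dropped and to 3.44 when High library 2 was dropped. Its ligands Ccl19, Ccl21a, Ccl21b and Ccl21c had no fragments in any library. Cxcr7, now named Ackr3, a scavenging receptor of Cxcl12, was at 9.31 and 10.9 FPKM in the Low libraries and 24.1 and 21.4 FPKM in the High libraries. Named here after its values were seen, Cxcr7 had groups that did not overlap and a log2 fold change of 1.18 ± 0.26 (SE) that did not pass (adjusted p = 0.0635). Cxcr4, the signalling receptor of Cxcl12, is described with the differences between the High libraries.

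Among the interleukin receptors, a pair of genes in the same cluster on chromosome 1 changed in opposite directions. Il18r1 (40465552 to 40500854, mm10), which binds interleukin-18, was at 4.34 and 6.78 FPKM in the Low libraries and 14.5 and 15.5 FPKM in the High libraries. The High libraries were alike and above both Low libraries. The 2.94-fold rise had a log2 fold change of 1.56 ± 0.29 (SE) and an adjusted p of 0.0379 (8.79e-06 to 0.698 over the alternatives), and limma-voom did not call it. Il18rap, its signalling partner, was at 6.60 and 9.96 FPKM in the Low libraries and 5.71 and 6.89 FPKM in the High libraries, with overlapping groups (log2 fold change -0.39, adjusted p = 0.586). The ligand Il18 was at 1.32 and 2.52 FPKM in the Low libraries and 6.06 and 1.995 FPKM in the High libraries, where the groups overlapped as well. Il1rl2 (40324610 to 40367562, mm10), the interleukin-36 receptor, was at 1.42 and 2.35 FPKM in the Low libraries and was listed at 0 in both High libraries. Against 147 fragments in the Low libraries, a floor of 3 fragments over the High group makes it at least 49.9-fold lower (adjusted p = 0.024, 1.25e-08 to 0.747 over the alternatives).

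Other large differences between the groups did not pass. Il13ra2, a decoy receptor of interleukin-13, was at 3.17 and 2.64 FPKM in the Low libraries and 0.388 and 0.361 FPKM in the High libraries (log2 fold change -2.93 ± 0.65 SE, adjusted p = 0.0672). The groups did not overlap. Il17rb, a receptor of interleukin-25, was at 0.118 and 0.0782 FPKM in the Low libraries and 2.63 and 0.432 FPKM in the High libraries (log2 fold change 3.97 ± 1.10 SE, adjusted p = 0.121). Il1a, an activating ligand of Il1r1, was at 0.0824 and 0.0205 FPKM in the Low libraries and 0.617 and 1.31 FPKM in the High libraries. The fragments of Il1a, 3 against 77, gave a ratio of 25.2 (exact 95% interval 8.31 to 125, counting error only) and an adjusted p of 0.0873. Il11ra1, the interleukin-11 receptor, was at 1.17 and 0.513 FPKM in the Low libraries, 0 in High library 1 and 0.18 FPKM in High library 2, with an adjusted p of 0.256. This gene has close copies in the mouse genome, so its counts are uncertain. Il11, named after its values were seen, was at 3.35 and 2.71 FPKM in the Low libraries and 0.33 and 0.923 FPKM in the High libraries (log2 fold change -2.24 ± 0.66 SE, adjusted p = 0.137). Ccl20, a ligand of Ccr6 that was also named after its values were seen, was under edgeR's filter on low counts. Its fragments, 5 and 42 in the Low libraries against 0 and 1 in those labelled High, gave a ratio of Low to High of 47.8 (exact 95% interval 8.18 to 1.93e+03, counting error only), though the Low libraries differed from each other. DESeq2 and edgeR without the filter each called Il13ra2, Il17rb, Il1a, Csf1r, Il34, Cxcr7 and Il17re beside the 5 genes above. DESeq2 also called Il11 and Cxcl3, and limma-voom called none of these 9. Among the abundant receptors, Il17rc, a chain of the interleukin-17 receptor, was at 18.5 and 13.1 FPKM in the Low libraries and 18.7 and 22.0 FPKM in the High libraries (adjusted p = 0.516).

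The receptor of Csf1 and Il34 and its ligands could be set side by side. Csf1r was at 2.34 FPKM in each Low library and 5.58 and 7.37 FPKM in the High libraries, and Il34 was at 7.36 and 5.12 FPKM against 16.03 and 15.97 FPKM. The libraries labelled High were above both Low libraries for each of these genes. Neither passed, at log2 fold changes of 1.48 ± 0.31 (SE) for Csf1r (adjusted p = 0.0579) and 1.37 ± 0.32 (SE) for Il34 (adjusted p = 0.0758). The other ligand, Csf1, lay lower in the High libraries, at 50.8 and 47.2 FPKM in the Low libraries against 45.8 and 14.0 FPKM. It did not pass either (log2 fold change -0.68 ± 0.57 SE, adjusted p = 0.599). The 28 kept genes that were neither called nor among the most abundant or most changed, such as Il7, Il15, Il2rg, Il4ra and Il10rb, lay between 0 and 24.1 FPKM over the libraries. In all, both High libraries were above or both below the Low pair in FPKM for 34 of the 63 kept genes (54%), 17 above and 17 below, against 50.8% of all genes with an FPKM of 1 or more in any library. That share is close to the background and is no result about these genes. The median absolute log2 fold change was 0.86 among the tested members and 0.35 among all tested genes that reached an FPKM of 1.

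The summed FPKM of 9 fibroblast markers was lower in the High libraries, at 1434 and 1310 in the Low libraries against 323 and 101 in the High libraries, and 1 of 8 tested passed (Fap, lower). Not all these markers were lower: Dcn was at 2.48 and 3.40 FPKM in the Low libraries and 117.5 and 11.5 FPKM in the High libraries, and Pdgfra at 12.4 and 15.2 FPKM against 36.3 and 4.12 FPKM. The 7 epithelial markers summed to 1609 and 1081 in the Low libraries, against 1288 and 3086 in the High libraries, with 0 passing in edgeR, where 3 had an unadjusted p under 0.05. DESeq2 called 2 of them and limma-voom 0. The part of these shifts in the cytokine results was not tested, and in bulk RNA fewer cells of a type and less RNA per cell cannot be told apart.

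The next question was how the High libraries, labelled as separate clones, differed from each other. In High library 2 the neutrophil attractants Cxcl1, Cxcl3 and Cxcl5 and the cytokines Il33, Il24, Csf2, Csf3 and Lif were higher than in High library 1, while Cxcl12 and receptors such as Cxcr4, Il1rl1, Lifr and Osmr were lower. Of 60 tested genes, 10 were higher and 15 lower in High library 2 (41.7%). Of all 12987 tested genes 4.46% were higher and 6.47% lower, together 10.9%, or 11.1% of those that reached an FPKM of 1. DESeq2 called 8 higher and 10 lower, and limma-voom 11 and 15. The median absolute log2 fold change was 1.18 among the 60 and 0.37 among all tested genes that reached an FPKM of 1. This comparison is between a pair of libraries: its spread comes from the Low duplicates alone, with 1 residual degree of freedom, and assumes that a High library varies like them. It also shares the High libraries with the comparison of the groups, so a gene's results in these comparisons are not independent.

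Ligands were called in both directions and receptors were called lower. Of 33 tested ligands and secreted antagonists, 10 were higher and 6 lower in High library 2. Of 27 tested receptors, 0 were higher and 9 lower, with 12 at an unadjusted p under 0.05. DESeq2 called 0 receptors higher and 7 lower, and limma-voom called 1 higher and 9 lower. By role, 4 of 7 CXC and CX3C chemokines, 3 of 13 interleukins and antagonists and 3 of 5 other cytokines were higher, while 3 of 8 CC chemokines, 6 of 21 interleukin receptors and 2 of 3 other cytokine receptors were lower. Also lower were 2 of the 7 CXC and CX3C chemokines, 1 of the 5 other cytokines (Csf1) and 1 of 3 chemokine receptors (Cxcr4). For 21 of the 63 kept genes (33.3%) the High libraries lay on opposite sides of both Low libraries, against 16.6% of all genes with an FPKM of 1 or more in any library.

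Cxcl1, Cxcl2, Cxcl3 and Cxcl5 are ligands of Cxcr2 and lie in 1 cluster on chromosome 5 (90759360 to 90905938, mm10). The promoters of Cxcl1, Cxcl2 and Cxcl3 are shown because these neighbours were highest in the same library and hold the same kappaB letters, the motif bound by NF-kB. Cxcl10, an interferon-induced chemokine further along the chromosome, holds kappaB letters too and was highest in the other High library. Cxcl5, in the same cluster and also highest in High library 2, is not among the kappaB matches listed below. Whether its promoter was among those searched is not reported here. Each sequence is the 250 bases before the RefSeq start site (GRCm38.p6), 5′ to 3′ on the strand of the gene, with the kappaB match in capitals. The windows are chr5:90890995-90891244 for Cxcl1, chr5:90903649-90903898 for Cxcl2 and chr5:90785851-90786100 for Cxcl3 (plus strand), and chr5:92348890-92349139 for Cxcl10 (minus strand).
Cxcl1: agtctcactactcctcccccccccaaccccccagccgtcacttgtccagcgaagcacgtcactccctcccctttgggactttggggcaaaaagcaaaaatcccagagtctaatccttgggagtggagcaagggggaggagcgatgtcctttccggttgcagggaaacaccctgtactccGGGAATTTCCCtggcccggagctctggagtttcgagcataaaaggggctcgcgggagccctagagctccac
Cxcl2: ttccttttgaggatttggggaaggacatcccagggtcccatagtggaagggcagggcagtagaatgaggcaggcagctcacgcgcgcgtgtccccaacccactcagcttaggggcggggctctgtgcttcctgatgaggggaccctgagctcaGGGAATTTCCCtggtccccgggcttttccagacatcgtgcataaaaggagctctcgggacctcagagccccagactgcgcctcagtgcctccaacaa
Cxcl3: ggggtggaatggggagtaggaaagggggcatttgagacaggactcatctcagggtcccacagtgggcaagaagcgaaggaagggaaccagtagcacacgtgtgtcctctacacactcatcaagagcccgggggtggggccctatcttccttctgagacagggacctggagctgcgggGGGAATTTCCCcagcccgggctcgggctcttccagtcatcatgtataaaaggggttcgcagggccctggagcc
Cxcl10: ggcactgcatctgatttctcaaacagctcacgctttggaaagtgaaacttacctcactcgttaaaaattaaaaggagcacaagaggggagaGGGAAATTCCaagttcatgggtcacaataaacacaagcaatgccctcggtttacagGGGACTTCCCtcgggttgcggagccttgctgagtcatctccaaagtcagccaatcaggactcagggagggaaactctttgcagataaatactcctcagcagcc

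The kappaB match spans positions -71 to -61 from the start site in Cxcl1, -97 to -87 in Cxcl2 and -73 to -63 in Cxcl3. Cxcl10 has matches at -159 to -150 and at -103 to -94. The GENCODE starts of Cxcl1 (90891241) and Cxcl2 (90903871) lie inside these windows, so the positions depend on the start site used. RefSeq promoters, here 250 bases before to 50 after the start site, were found for 45 of the 63 kept genes, 57 promoters in all. The kappaB motif, searched on both strands, was in 10 of the 57 (17.5%), against 4.51% of all 32851 promoters. The AP-1 motif TGANTCA was in 11 (19.3%, against 7.81%) and the STAT motif TTCNNNGAA in 3 (5.26%, against 8.3%). The genes with a kappaB match were Ccl9, Ccl20, Csf1, Cxcl1, Cxcl2, Cxcl3, Cxcl10, Il1r1, Il4ra and Il6. Of these, Cxcl1 and Cxcl3 were higher in High library 2 and Csf1, Cxcl10 and Il1r1 lower, so genes with the motif moved both ways. A match is a description of letters and not of binding.

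Cxcl1 was at 16.5 and 16.4 FPKM in the Low libraries, 4.54 in High library 1 and 21.7 in High library 2. Cxcl5 was at 22.9 and 22.1 FPKM in the Low libraries, 8.43 in High library 1 and 34.5 in High library 2. For both, the Low libraries were alike, High library 1 lay below them and High library 2 above, with log2 differences between the High libraries of 2.25 ± 0.46 (SE, adjusted p = 3.34e-05) and 2.03 ± 0.39 (SE, adjusted p = 6.02e-06). Cxcl3 was at 3.51 and 3.49 FPKM in the Low libraries, 6.03 in High library 1 and 39.6 in High library 2. Both High libraries exceeded the Low libraries, and High library 2 stood far above the rest (6.54-fold over High library 1, adjusted p = 1.28e-07). Cxcl2, under edgeR's filter on low counts, had 2 fragments in each Low library, 0 in High library 1 and 24 in High library 2, at least 5.58-fold higher there than in High library 1 against a floor of 3 fragments. The 3 paralogs Cxcl1, Cxcl2 and Cxcl3 are similar in sequence, so fragments could be divided between them. Ppbp, in the same cluster and also a ligand of Cxcr2, is outside the symbol rule. It was at 4.65 and 5.62 FPKM in the Low libraries, 3.87 in High library 1 and 117 in High library 2, a log2 difference of 4.92 ± 0.45 (SE, adjusted p = 8.49e-25). Cxcl16, a transmembrane chemokine, was at 24.2 and 23.5 FPKM in the Low libraries, 26.3 in High library 1 and 56.5 in High library 2, where it alone stood apart (2.15-fold over High library 1, adjusted p = 0.0138).

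Cxcl10 and 3 CC chemokines were lower in High library 2. Cxcl10 was at 3.17 and 2.83 FPKM in the Low libraries, 9.41 in High library 1 and 2.55 in High library 2, a log2 difference of -1.89 ± 0.57 (SE, adjusted p = 0.0118). Cxcl11, its relative, is classed as a polymorphic pseudogene in GENCODE M21. It had 1 and 0 fragments in the Low libraries, 32 in High library 1 and 0 in High library 2. That makes it at least 15.3-fold lower in High library 2 than in High library 1. Ccl5, a T-cell attractant, was at 14.6 and 4.30 FPKM in the Low libraries, 25.7 in High library 1 and 7.68 in High library 2 (log2 difference -1.74 ± 0.56 SE, adjusted p = 0.0203). High library 1 was the highest for each of these genes, though the Low libraries differed from each other for Ccl5. Ccl8 differed by -4.41 ± 0.91 (SE, adjusted p = 3.53e-05) and Ccl11 by -2.35 ± 0.67 (SE, adjusted p = 0.00691) on the log2 scale. With DESeq2 the calls of Cxcl10, Ccl5 and Ccl11 were lost. Over the alternatives their adjusted p ran from 0.00643 to 0.18, from 0.0119 to 0.356 and from 0.000777 to 0.188, each highest with DESeq2.

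Cxcl12, which retains cells in their niches, and its receptor Cxcr4 were both lower in High library 2. Cxcl12 (chromosome 6, 117168535 to 117181367, mm10) was at 347 and 334 FPKM in the Low libraries, 306 in High library 1 and 57.9 in High library 2. Only High library 2 was low (log2 difference -2.41 ± 0.34 SE, adjusted p = 1.86e-10). Cxcr4 (chromosome 1, 128588199 to 128592293, mm10) was at 0.272 and 0.361 FPKM in the Low libraries, 10.8 in High library 1 and 0.125 in High library 2. High library 1 held nearly all its fragments, 303 against 6, 16 and 5 in the others, and the log2 difference was -6.40 ± 0.74 (SE, adjusted p = 8.5e-16). Between groups Cxcr4 did not pass (log2 fold change 4.08 ± 2.21 SE, adjusted p = 0.45), and without High library 1 the value turned to -1.33.

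**Figure D3:**
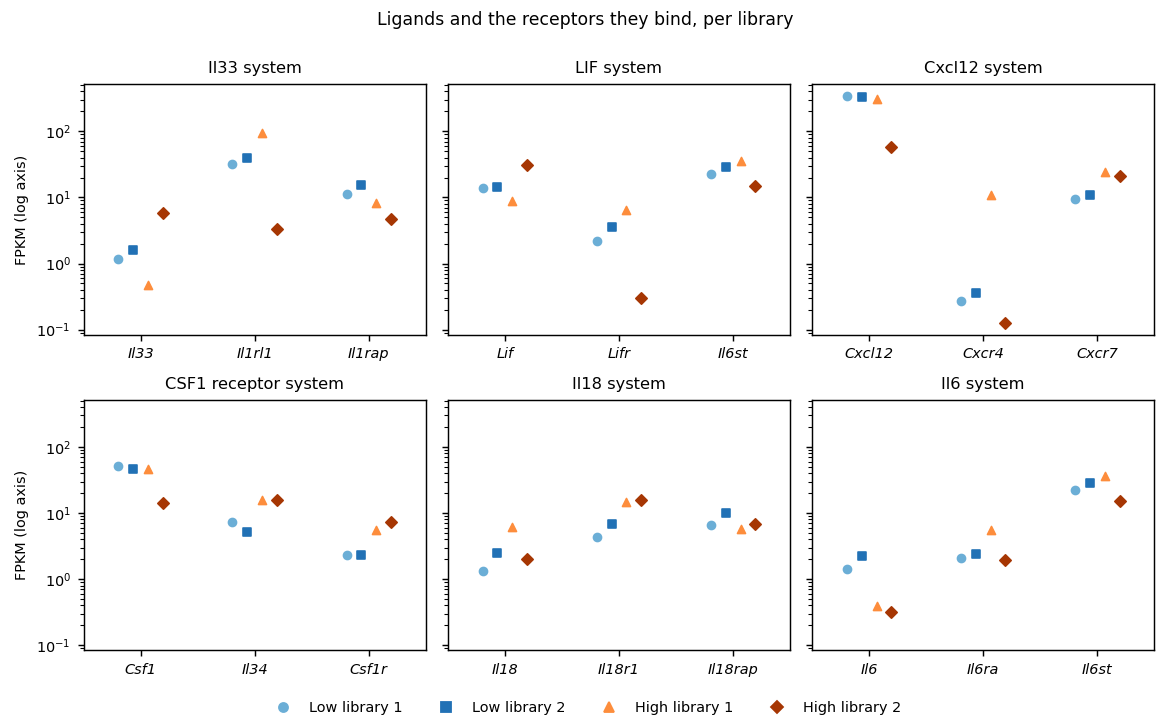
FPKM on a log axis (vertical) in each of the 4 libraries for ligands and the receptors they bind, 1 panel per system. In the Il33 and LIF panels the ligand is highest and the receptors Il1rl1 and Lifr lowest in High library 2, and in the Cxcl12 panel Cxcr4 is high in High library 1 alone.

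In the interleukin-33 system, ligand and receptor lay on opposite sides. Il33, an alarmin of epithelial and stromal cells, was at 1.16 and 1.60 FPKM in the Low libraries, 0.469 in High library 1 and 5.91 in High library 2. Its receptor Il1rl1, or ST2 (chromosome 1, 40429570 to 40465415, mm10), was at 31.7 and 39.0 FPKM in the Low libraries, 93.7 in High library 1 and 3.34 in High library 2. High library 2 was thus the highest for the ligand and the lowest for the receptor, with log2 differences of 3.66 ± 0.58 (SE, adjusted p = 2.42e-08) and -4.81 ± 0.41 (SE, adjusted p = 9.35e-29). The shared chain Il1rap was at 11.1 and 15.5 FPKM in the Low libraries, 8.23 in High library 1 and 4.75 in High library 2, and did not pass (adjusted p = 0.117). Il1r1, the interleukin-1 receptor, was at 5.88 and 7.68 FPKM in the Low libraries, 10.6 in High library 1 and 3.28 in High library 2 (log2 difference -1.69 ± 0.38 SE, adjusted p = 0.000214). Il1rn, the secreted antagonist of that receptor, was at 3.16 and 3.05 FPKM in the Low libraries, 3.23 in High library 1 and 9.27 in High library 2. High library 2 stood above the other 3, with a log2 difference of 1.54 ± 0.44 (SE, adjusted p = 0.00609), a call lost with DESeq2 (0.00465 to 0.0654 over the alternatives). Il18r1, which lies beside Il1rl1, was at 14.5 and 15.5 FPKM in the High libraries and did not pass (log2 difference -0.12 ± 0.37 SE, adjusted p = 0.914).

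In the interleukin-6 family, Lif and its receptor Lifr also lay on opposite sides. Lif, a self-renewal and differentiation factor, was at 13.9 and 14.3 FPKM in the Low libraries, 8.95 in High library 1 and 31.3 in High library 2. Lifr (chromosome 15, 7090614 to 7197489, mm10) was at 2.18 and 3.52 FPKM in the Low libraries, 6.38 in High library 1 and 0.3 in High library 2. High library 2 had the most Lif and the least Lifr (log2 differences 1.81 ± 0.35 SE, adjusted p = 7.14e-06, and -4.48 ± 0.45 SE, adjusted p = 1.34e-20). Osmr, the oncostatin M receptor, which lies on the same chromosome, was at 6.84 and 9.65 FPKM in the Low libraries, 18.1 in High library 1 and 2.48 in High library 2. The common chain Il6st, or gp130, was at 22.6 and 28.8 FPKM in the Low libraries, 35.8 in High library 1 and 15.1 in High library 2. Il6ra, the ligand-binding chain for interleukin-6, was at 2.12 and 2.37 FPKM in the Low libraries, 5.55 in High library 1 and 1.98 in High library 2. For these 3 receptors High library 1 lay above and High library 2 below both Low libraries, with log2 differences of -2.87 ± 0.39 (SE) for Osmr, -1.25 ± 0.35 (SE) for Il6st and -1.49 ± 0.44 (SE) for Il6ra (adjusted p = 1.18e-11, 0.00555 and 0.0102). DESeq2 did not call Il6ra (adjusted p 0.00699 to 0.104 over the alternatives). Il6 itself was at 1.40 and 2.26 FPKM in the Low libraries and 0.39 and 0.318 FPKM in the High libraries, from 6 and 7 fragments in the latter, with no call in either comparison.

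Among the colony-stimulating factors, the directions were mixed. Csf2, which sustains granulocytes and macrophages, was at 0.439 and 0.612 FPKM in the Low libraries, 0.415 in High library 1 and 3.96 in High library 2. Csf3, the granulocyte factor, was at 5.53 and 3.50 FPKM in the Low libraries, 3.62 in High library 1 and 17.2 in High library 2. Both were highest in High library 2, with log2 differences of 3.23 ± 0.99 (SE, adjusted p = 0.0145) and 2.24 ± 0.47 (SE, adjusted p = 4.53e-05). With DESeq2 the call of Csf2 was lost (adjusted p 0.00316 to 0.249 over the alternatives), and Csf3r, the receptor of Csf3, had 1 fragment in all libraries together. Csf1, the macrophage factor, was at 50.8 and 47.2 FPKM in the Low libraries, 45.8 in High library 1 and 14.0 in High library 2. Here High library 2 was the low one (log2 difference -1.69 ± 0.36 SE, adjusted p = 6.45e-05). Il24, a cytokine of the interleukin-10 family, was at 2.39 and 1.59 FPKM in the Low libraries, 1.13 in High library 1 and 15.1 in High library 2, a log2 difference of 3.73 ± 0.61 (SE, adjusted p = 5.06e-08). Il13ra1, a chain of the interleukin-13 receptor, was at 10.4 and 14.5 FPKM in the Low libraries, 23.7 in High library 1 and 5.48 in High library 2 (log2 difference -2.12 ± 0.37 SE, adjusted p = 4.3e-07). Il24 was highest and Il13ra1 lowest in High library 2. Il17rb fell by 2.60 ± 0.83 (SE) on the log2 scale from High library 1 to High library 2 (adjusted p = 0.0207), a call lost with DESeq2 (0.0026 to 0.295 over the alternatives).

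Few of the signalling genes downstream of these receptors passed, but few of all tested genes did either. Of all 12987, 2.47% were called for High against Low, and 10.9% for High library 2 against High library 1. Whether the lists below differ from these shares was not tested. Of 25 tested JAK-STAT genes, 1 was called between the groups: the kinase Jak2 was at 9.27 and 12.2 FPKM in the Low libraries and 26.9 and 27.0 FPKM in the High libraries (log2 fold change 1.35 ± 0.23 SE, adjusted p = 0.0308). The High libraries were alike and above both Low libraries. Between the High libraries 0 of the 25 were higher in library 2, and the interferon-responsive factor Stat2 was lower there (9.24 against 3.20 FPKM, log2 difference -1.53 ± 0.39 SE, adjusted p = 0.00138). Of 31 genes of NF-kB and interleukin-1 or TNF signalling, 0 passed edgeR's test between the groups, with 6 at an unadjusted p under 0.05, 1 called by DESeq2 and 0 by limma-voom. Between the High libraries 1 was higher in library 2 (Tnfaip3, an NF-kB feedback inhibitor, 11.1 against 23.1 FPKM, adjusted p = 0.022) and 2 were lower (Irak3, adjusted p = 0.0207, and Birc3, adjusted p = 0.00177). Of 19 other cytokine ligands and receptors, 0 passed between the groups in edgeR, where 5 had an unadjusted p under 0.05. DESeq2 called 5 and limma-voom 0. Between the High libraries Clcf1, a ligand that signals through Il6st and Lifr, was higher in library 2 (35.5 against 89.3 FPKM, adjusted p = 0.00584). The decoy receptor Tnfrsf11b was lower (29.1 against 0.277 FPKM, adjusted p = 7.05e-34). Of 9 tested genes of the chemokine system outside the symbol rule, 0 passed between the groups in edgeR, 0 had an unadjusted p under 0.05, and DESeq2 and limma-voom each called 0. In that list only Ppbp passed between the High libraries.

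Cell-type markers differed between the High libraries too. Of 7 tested epithelial markers, 6 were higher in High library 2, against 4.46% of all tested genes. Among these calls, Krt5 rested on 0 fragments in High library 1 and 25 in High library 2. Of 8 tested fibroblast markers 6 were lower, against 6.47% of all tested genes, and 1, the collagen gene Col1a2, higher. The leukocyte markers S100a8 and S100a9, at 22.9 and 10.7 FPKM in High library 2 from 109 and 76 fragments, were left out of the test by edgeR's filter on low counts, while Ptprc had 0 fragments in High library 1 and 5 in High library 2. The part of these markers in the cytokine differences was not tested.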

How the data were processed

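Per the submitters' processing notes, cutadapt 1.5, TopHat2 2.0.13 and Cuffdiff 2.2.1 were used with the mouse build mm10. Per the labels' protocols, DNase-treated total RNA (500 ng) entered a directional Illumina kit. No annotation or strand setting is given in the sources used here, so reads of overlapping or antisense genes cannot be told apart. The deposited table gives, per the file headers, an estimated count of fragments (the authors' raw fragments) and an FPKM value scaled by the authors, per gene and library. Of the estimated counts, 99.18% were whole within 1e-06, and all were rounded. Per-sample columns left unused numbered 0.

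Tests used the quasi-likelihood method of edgeR 4.0.16 with limma 3.58.1 in R 4.3.3. They were two-sided, with TMM scaling, robust fitting, a smallest count of 10 and Benjamini-Hochberg adjustment. Residual degrees of freedom were 2 between the groups (biological coefficient of variation 32.2%) and 1 between the High libraries (17.2%). SEs are the log2 fold change over the square root of the F statistic. The fits were tested on simulated data. Duplicates were compared first: chi-square per degree of freedom was 32.4 for the Low pair and 123.4 for the High pair, so libraries were not merged. The smallest p of an exact permutation test with 2 libraries a group is 0.333, and none was run. A count of 3 fragments is the floor for genes at 0, or 0.107 to 0.216 CPM by library. Ratios carry exact 95% counting intervals.

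Members and gene lists were chosen with earlier results of these data known. Named genes were every member called in either comparison, the 10 with the highest mean FPKM, the 10 tested members with the largest change between groups, the 5 with the largest between High libraries, and ligands with their receptors. List genes were named where called, and some are not reported here. Gene positions are from GENCODE M21 (GRCm38, the same assembly as mm10). Alternatives were RLE scaling, DESeq2 1.42.0, limma-voom, no filter, limma-trend on log2(FPKM + 1) or log2(FPKM + 0.1), a replicate block and each library left out. A crossed block was added after seeing the data. No paired design is given. The deviations of same-numbered libraries had a correlation of -0.139 across genes, a value whose sign depends on the arbitrary numbering.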

Additional observations from a re-analysis of the deposited data

Results flagged for a closer look

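For 16 of the tested genes edgeR called a difference between the High libraries, which lay on opposite sides of both Low libraries in FPKM. In 10 of them High library 2 was the lower: the log2 difference, High library 2 minus High library 1, was -6.40 for Cxcr4, -4.81 for Il1rl1, -4.48 for Lifr, -4.41 for Ccl8, -2.87 for Osmr, -2.12 for Il13ra1, -1.89 for Cxcl10, -1.69 for Il1r1, -1.49 for Il6ra and -1.25 for Il6st. The other 6 were higher in High library 2, with log2 differences of 3.73 for Il24, 3.66 for Il33, 3.23 for Csf2, 2.25 for Cxcl1, 2.03 for Cxcl5 and 1.81 for Lif. A mean over the High libraries describes neither clone for these genes. Of the 16, 0 passed the test between the groups, but they were chosen for High libraries on opposite sides of the Low pair. That choice makes a call between the groups unlikely, so the 0 is no separate result. Each log2 difference compares a pair of libraries. A lone High library was set against the Low pair only in the fits that left out the other High library. Their effect sizes are given below for Ccl8 and Cxcr4. For some of the 16 genes 1 High library lay close to a Low library. Csf2 was at 0.415 FPKM in High library 1 against 0.439 and 0.612 in the Low libraries. Il6ra was at 1.98 FPKM in High library 2 against 2.12 and 2.37 in the Low libraries. Opposite sides alone held for 16.6% of all genes with an FPKM of 1 or more in any library.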

How the results depend on the processing

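The calls between the groups depended on the processing. With edgeR 148 genes were higher and 173 lower in the libraries labelled High, and 3 and 2 of the members. DESeq2 gave 635 and 527 genes and 10 and 4 members. Without a filter on low counts there were 437 and 377 genes and 9 members higher. limma-voom gave 72 genes and 0 members higher. On log2(FPKM + 1) 0 members were higher and 1 lower, and on log2(FPKM + 0.1) 1 and 1. Leaving out each library gave 0 to 1406 genes higher and 0 to 1069 lower, and 0 to 20 members higher and 0 to 14 lower. Without either Low library 0 genes were called. The lone library left is then assumed to vary like the High pair. Between the High libraries, 579 genes were higher in library 2 with edgeR and 354 with DESeq2. Leaving out a High library moved the change between the groups from -0.65 to 3.74 for Ccl8 and from -1.33 to 5.04 for Cxcr4, negative without High library 1 in both. The cause was not tested. No library was left out for the comparison of the High libraries, since no residual degree of freedom would remain.

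With the replicate number as a block, 223 genes were higher between the groups, and the members kept 3 higher and 2 lower. The numbers only name the libraries, so the block is arbitrary. With the pairing crossed, 38 genes were higher and 56 lower, and 0 members were called in either direction. Over the genes called or most changed in a comparison and their alternatives, a call was lost 32 times and gained 16 times, 2 values turned sign and 202 kept their direction and call.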

Other observations

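Several genes described above lie in clusters in which some other members had few or no fragments. Il24 lies on chromosome 1 beside Il20 and Il10, which had no fragments in any library, and Il19, which had 2 in all. Il1rn lies on chromosome 2 beside Il1f8, Il1f6, Il1f5 and Il1f10, which had none, and Il1f9, which was counted at 0.176 to 0.677 FPKM. In the second CC cluster of chromosome 11, Ccl5 and Ccl9 were counted, while Ccl3 and Ccl4 had no fragments and Ccl6 reached 0.456 FPKM. Among chemokine receptors that were not kept, Ccr2 was at 0.302 and 0.612 FPKM in the Low libraries, 0.527 in High library 1 and 0.0949 in High library 2. Ccr1 had no fragments in the Low libraries and was at 0.285 and 0.566 FPKM in the High libraries. These genes were chosen after their values were seen.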
